A study of Mus musculus with 24 samples.

Results

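Soluble guanylate cyclase and the effectors of cyclic GMP were followed here as 7 genes: the cyclase subunits Gucy1a1 (α1), Gucy1a2 (α2) and Gucy1b1 (β1), the cGMP-dependent protein kinases Prkg1 and Prkg2, and the cGMP-hydrolysing phosphodiesterases Pde5a and Pde9a. They were taken by RefSeq symbol from 21887 protein-coding gene records of chromosomes 1 to 19, X and Y. Each gene was read as a window, its record with 10 kb on either side. The study profiled histone marks by chromatin immunoprecipitation and sequencing in N1E115, a mouse neuroblastoma line, in a NOS1+ form. Cells had been kept for 3 days at 20% O2 or at 4% O2, the levels called normoxia and hypoxia by the submitters. For each of 5 marks there were 2 libraries per oxygen level, 20 in all. The 4 input libraries among the 24 samples were not analysed here. The labels do not say how the NOS1+ cells were made or whether they were 1 clone. Nor do they say if both libraries of a mark and oxygen level stem from different dishes, and p-values therefore measure only their spread, which may be technical.

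Nitric oxide made by neuronal NO synthase (Nos1) binds the haem of soluble guanylate cyclase, a heterodimer of an α and a β subunit that needs both to make cGMP from GTP. cGMP then activates the PKG kinases, opens cyclic nucleotide-gated channels and sets the activity of some phosphodiesterases. Pde5a and Pde9a are specific for cGMP and end the signal. Of the marks, H3K4me3 sits at active or poised promoters, H3K27ac at active promoters and enhancers, H3K4me1 at enhancers and around promoters, H3K36me3 over transcribed gene bodies, and H3K27me3 over Polycomb-repressed chromatin.

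RefSeq promoters were at hand for 5 of the 7 members, with 7 annotated starts in all. Prkg2 and Pde9a had no entry. Each sequence runs from 250 bases before to 50 bases after the start on the gene's strand in GRCm38.p6, the patched assembly of the mm10 build that the peak lists use. The sequences shown are those of the α subunits, of their partner Gucy1b1, and of both starts of Prkg1, of which only 1 carried H3K4me3. The α subunits were chosen because the H3K4me3 lengths in their windows were longer at 4% O2 without overlap. That difference was not significant, and within the record alone the Gucy1a1 lengths overlap. A link between the motifs and oxygen was not tested. Capitals mark 4 short motifs, searched on both strands. The core letters of the hypoxia response element were read as ACGTG. Its variant core was read as GCGTG. The GC box, bound by Sp1-type factors, was read as GGGCGG. The box bound by the factor NF-Y was read as CCAAT. The sequences lie at chr3:82145024-82145323 (Gucy1a1, minus strand, the downstream start), chr9:3532099-3532398 (Gucy1a2, plus), chr3:82074662-82074961 (Gucy1b1, minus), chr19:31764984-31765283 (Prkg1 upstream start, minus) and chr19:31664321-31664620 (Prkg1 downstream start, minus).
Gucy1a1 downstream start: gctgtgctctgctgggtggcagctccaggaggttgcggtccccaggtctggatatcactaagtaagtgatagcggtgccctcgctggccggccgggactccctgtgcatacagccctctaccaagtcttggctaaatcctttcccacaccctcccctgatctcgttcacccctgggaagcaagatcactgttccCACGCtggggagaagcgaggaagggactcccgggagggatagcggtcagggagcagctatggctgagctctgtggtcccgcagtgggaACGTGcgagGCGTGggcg
Gucy1a2: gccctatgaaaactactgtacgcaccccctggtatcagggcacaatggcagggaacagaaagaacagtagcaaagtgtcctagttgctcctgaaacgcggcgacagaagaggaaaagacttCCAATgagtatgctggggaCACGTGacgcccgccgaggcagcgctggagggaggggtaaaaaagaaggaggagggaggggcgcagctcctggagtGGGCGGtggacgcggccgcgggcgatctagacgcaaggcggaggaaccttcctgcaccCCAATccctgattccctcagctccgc
Gucy1b1: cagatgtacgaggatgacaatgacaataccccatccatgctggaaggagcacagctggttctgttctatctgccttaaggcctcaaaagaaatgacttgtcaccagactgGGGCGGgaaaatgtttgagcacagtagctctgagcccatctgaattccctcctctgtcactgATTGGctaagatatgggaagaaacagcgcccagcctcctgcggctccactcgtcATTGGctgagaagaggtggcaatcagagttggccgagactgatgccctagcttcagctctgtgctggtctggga
Prkg1 upstream start: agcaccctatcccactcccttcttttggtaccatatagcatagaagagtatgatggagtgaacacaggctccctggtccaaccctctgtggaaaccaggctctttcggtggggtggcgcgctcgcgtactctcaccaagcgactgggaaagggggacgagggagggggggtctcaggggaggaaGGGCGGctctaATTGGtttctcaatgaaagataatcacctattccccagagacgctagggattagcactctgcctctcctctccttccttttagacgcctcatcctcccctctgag
Prkg1 downstream start: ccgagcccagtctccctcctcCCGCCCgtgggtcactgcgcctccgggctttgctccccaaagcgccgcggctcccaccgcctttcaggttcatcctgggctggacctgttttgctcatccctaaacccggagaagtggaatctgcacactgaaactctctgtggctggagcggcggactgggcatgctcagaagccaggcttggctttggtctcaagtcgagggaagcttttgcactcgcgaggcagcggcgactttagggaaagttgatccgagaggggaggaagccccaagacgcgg

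ACGTG was present in the windows of Gucy1a1 (downstream start, 1 match) and Gucy1a2 and in no other of the 7, against 19.6% of 32851 RefSeq promoters of the same length. In Gucy1a2 the matches on the strands overlap, at positions -110 and -109 from the start, and together spell a palindrome of 6 letters. GCGTG matched only at the downstream start of Gucy1a1, with 2 matches, and is held by 32.4% of all promoters. A GC box was found in 6 of the 7 member windows, all but that same start, against 35.7% of all promoters. CCAAT boxes were found in Gucy1a2 (2), Gucy1b1 (2) and the upstream start of Prkg1 (1), against 37.4% of all promoters. The marked upstream start of Prkg1 had 10 CpG dinucleotides and the unmarked downstream start had 20. Gucy1b1 had 6 CpG, Gucy1a1 14 and 15, Gucy1a2 19 and Pde5a 23, where the median promoter had 7. A match describes the letters in these windows only.

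Across the series, MACS2 lists held 26489 to 50496 peaks for H3K4me3, 60786 to 94286 for H3K27ac and 99749 to 126503 for H3K4me1. SICER lists held 17535 to 20804 islands for H3K36me3, with 13350093 to 25048785 reads in islands, and 22718 to 34471 islands for H3K27me3, with 8479517 to 12228541 reads. The file headers name 3 flow cells. All replicate 2 libraries shared 1 of them. For every mark but H3K4me1 the replicate 1 libraries of 20% and 4% O2 were on different ones. For these marks oxygen and flow cell cannot be told apart within replicate 1. Within replicate 2, H3K4me3 and H3K4me1 were on lane 7 at 20% O2 and on lane 6 at 4% O2. The replicate 1 H3K4me1 libraries were on lane 1 at 20% and lane 2 at 4% O2. In these pairs oxygen and lane cannot be told apart. H3K4me3 within 1000 bp of a record end, in all 4 libraries, was found for 13 of 15 noradrenergic and neuronal markers, among them Dbh and Th. It was found for 2 of 6 smooth muscle markers (Smtn and Des, with Acta2, Tagln and Cnn1 at none), 0 of 5 glial, 0 of 5 endothelial, 0 of 4 immune, and 1 of 4 liver and muscle markers (Apoa1). Nos1 itself had no such peak in any library, although the cells are labelled NOS1+.

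The 7 members fell into 3 chromatin patterns that held at both oxygen levels. Gucy1a1, Gucy1b1, Pde5a and Pde9a had H3K4me3 and H3K27ac at an end of the record and H3K36me3 along the body. Gucy1a2 and Prkg1 had the marked start without H3K36me3 over the body. Prkg2 had neither, and carried a cluster of H3K27ac and H3K4me1 inside its record instead. No member window held an H3K27me3 island in any of the 4 libraries of that mark.

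**Figure D1:**
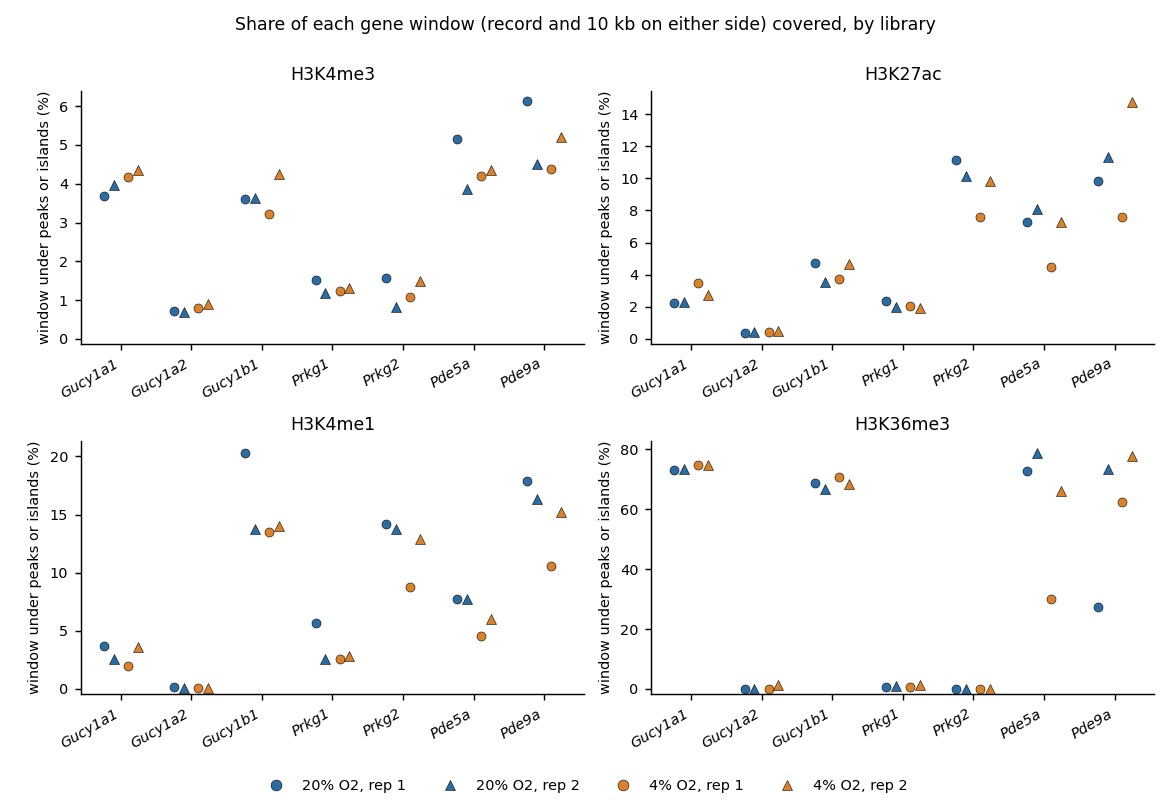
Share of each gene window (y axis, percent) covered by peaks or islands of 4 marks, for the 7 members (x axis) and every library (colour: oxygen level; circle: replicate 1, triangle: replicate 2). H3K36me3 separates the members: it covers 66.7% to 74.8% of the Gucy1a1 and Gucy1b1 windows in every library, and close to none of the Gucy1a2, Prkg1 and Prkg2 windows.

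The α1 subunit gene Gucy1a1 and the β1 gene Gucy1b1 form the cyclase dimer found in most tissues and are neighbours on chromosome 3, 17715 bp apart. Both are on the minus strand. The stretch between them had no H3K27ac in any library. H3K36me3 islands covered 94.1% and 94.5% of the Gucy1a1 record at 20% O2 and 97.1% and 96.0% at 4% O2. They covered 96.0% and 96.5% of the Gucy1b1 record at 20% and 99.3% and 96.5% at 4%. Averaged over libraries, the Gucy1a1 record was covered more than those of 91.1% of all protein-coding genes, and the Gucy1b1 record more than 95.0%, while 46.3% of genes had no H3K36me3 in the record at all. The 2 genes had separate islands, chr3:82029401-82074400 for Gucy1b1 and chr3:82088801-82144400 for Gucy1a1.

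Gucy1a1 had 1 H3K4me3 domain over both of its annotated starts, 2710 and 2914 bp long at 20% O2 and 3062 and 3204 bp at 4% O2. The oxygen levels did not overlap, and the mean difference was 321 bp (2812 ± 144 against 3133 ± 100 bp, SD, n = 2 each). Counted within the record alone the lengths overlap, 2231 and 2648 bp against 2567 and 2698 bp. The part of the domain that reached upstream of the record therefore enters the call. The neighbouring record of the long non-coding RNA gene Gm29921 runs over chr3:82146398-82236827. The H3K4me3 domain ended at 82146425 and 82146212 at 20% O2 and at 82146441 and 82146452 at 4% O2. Marks upstream of the Gucy1a1 record therefore cannot be assigned to 1 of these genes. H3K27ac around the Gucy1a1 starts covered 1628 and 1671 bp at 20% and 2566 and 2016 bp at 4%, again without overlap. One of the peaks in replicate 1 of 4% O2, chr3:82146558-82146779, lies within the Gm29921 record. Leaving out replicate 1 of 4% O2, which held 3 separate peaks there, the H3K27ac difference was 366.5 bp instead of 641.5 bp, and within the record alone it was 210.0 bp.

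Gucy1a2, the α2 subunit that pairs with β1 mainly in brain, had an H3K4me3 domain at its start of 2822 and 2742 bp at 20% O2 and 3148 and 3170 bp at 4% O2. Replicate 2 of 4% O2 had a separate peak of 325 bp downstream, seen in no other library, which brought its window to 3495 bp. Here too the oxygen levels did not overlap, with a mean difference over the window of 539.5 bp. The domain reached 1493 and 1442 bp upstream of the start at 20% and 1818 and 1761 bp at 4%. Within the record alone the lengths were 1329 and 1300 bp against 1330 and 1734 bp, the last with the separate peak. H3K27ac at the start covered 1500 and 1750 bp at 20% and 1684 and 2012 bp at 4%, which overlap. The Gucy1a2 record is 373 kb long and had almost nothing else. H3K36me3 was absent from 3 libraries and covered 4800 bp in replicate 2 of 4% O2. H3K4me1 covered 590, 241, 462 and 341 bp (the 2 libraries of 20% O2, then the 2 of 4% O2, the order used throughout).

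Gucy1b1, whose product every cyclase dimer needs, had an H3K4me3 domain at its start of 2270, 2271, 2027 and 2312 bp within 2500 bp. H3K27ac there covered 1832, 2210, 2155 and 2244 bp. Both overlap between oxygen levels. The domain lay downstream of the start: in the 4 libraries it reached at most 184 bp upstream, while in Gucy1a1 it reached 562 to 802 bp upstream of the first start. Gucy1b1 had more H3K4me1 than the α genes, 12751, 8641, 8440 and 8799 bp in its window. One H3K27ac region in the record, chr3:82071531-82072130, was seen in both 4% libraries, at 195 and 469 bp, and in neither 20% library.

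**Figure D2:**
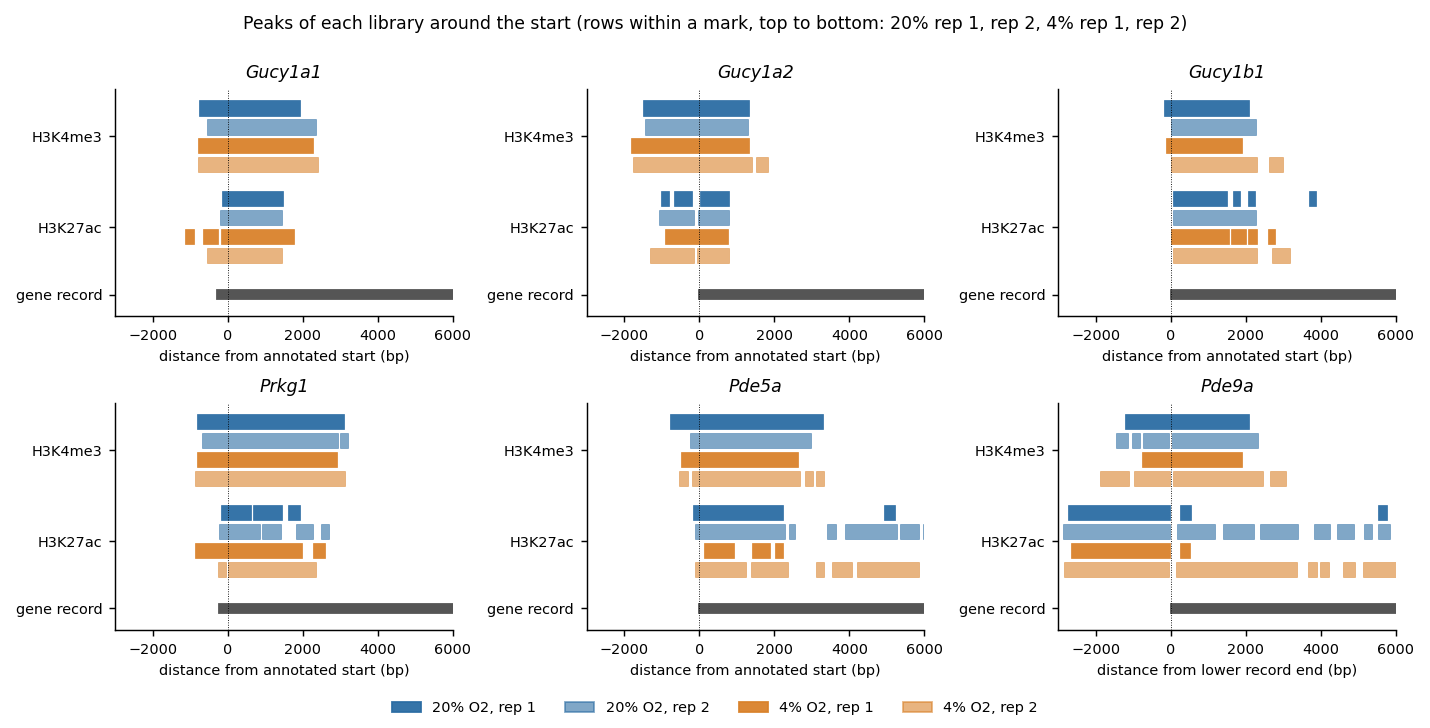
H3K4me3 and H3K27ac peaks of each library around the start of 6 members (x axis: distance in bp from the first annotated start, or from the lower record end for Pde9a, positive into the gene; 1 row per library, coloured by oxygen level). H3K4me3 lies over or right beside the zero point of all 6 members in all 4 libraries, and H3K27ac inside the lower end of Pde9a covers 2840 and 3221 bp in the replicate 2 libraries and 279 and 263 bp in the replicate 1 libraries.

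The kinase gene Prkg1 encodes PKG I, the main cGMP kinase of neurons and smooth muscle, and its record spans 1201 kb. Of its 2 annotated starts, the upstream one had H3K4me3 over 3314, 3193, 3312 and 3370 bp within 2500 bp. The downstream start, 101 kb into the gene, had no H3K4me3 and no H3K27ac within 2500 bp in any library. H3K27ac at the upstream start covered 1869 and 2077 bp at 20% O2 and 3093 and 2570 bp at 4% O2, without overlap. This was the reverse in direction of the whole Prkg1 window, where H3K27ac covered 28729 and 24429 bp at 20% and 24846 and 23553 bp at 4%, values that overlap. The gene body had little H3K36me3. The only region with islands in all 4 libraries, chr19:31083201-31092600, overlaps Cstf2t, a cleavage-stimulation factor gene nested in the Prkg1 record.

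Along Prkg1 the data held many marked sites. Of 18 merged H3K4me3 regions in the window, 10 were in all 4 libraries, as were 17 of 49 H3K27ac regions and 28 of 139 H3K4me1 regions. Of the 17 H3K27ac regions, 16 lay over 2500 bp from a start of Prkg1, 10 of them with H3K4me1 and 9 with H3K4me3 in all 4 libraries as well. Starts of other genes were not counted. Among those with H3K4me3, chr19:31082009-31082739 and chr19:31082983-31084048 lie at the nested gene Cstf2t (chr19:31082841-31086592). The longest of the 16 also had H3K4me3, a domain of 11584 bp at chr19:30545176-30556759. It lies outside the Prkg1 record and mostly outside the window, and covered 11517, 10848, 10890 and 10985 bp. The closest to the upstream start was chr19:31753761-31756327, 2371, 1998, 2326 and 1964 bp. An H3K4me3 region at chr19:31423963-31425448, 1314 and 589 bp at 20% O2, was absent from both 4% libraries, as was a short one at chr19:31755894-31756326. The short one lies right beside chr19:31753819-31755675, an H3K4me3 region in all 4 libraries. Of all H3K4me3 regions, 0.841% were found only in both 20% libraries. Neither region was called when equal peak numbers were used.

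Prkg2 encodes PKG II, the membrane-anchored kinase known from intestine, kidney, bone and some neurons. Neither end of its record had H3K4me3 within 1000 bp, and no H3K36me3 lay in its window. A single H3K4me3 region inside the record, chr5:98935201-98936600, was present in all libraries at 1329, 1044, 1364 and 1160 bp. It opened a run of 7 H3K27ac regions present in all 4 libraries, from 98935384 to 98954959, of which 6 had H3K4me1 in all 4. The longest of them, chr5:98947357-98953542, covered 5720, 5315, 3721 and 5038 bp. Over the window H3K27ac covered 14243 and 12923 bp at 20% O2 and 9669 and 12564 bp at 4% O2. H3K4me1 covered 18073 and 17599 bp at 20% and 11222 and 16482 bp at 4%. Neither overlapped. Both rest in large part on replicate 1 of 4% O2. Without it the H3K27ac difference was -1019 instead of -2466.5 bp and the H3K4me1 difference -1354 instead of -3984 bp. Without replicate 2 of 4% O2 they were -3914 and -6614 bp.

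**Figure D3:**
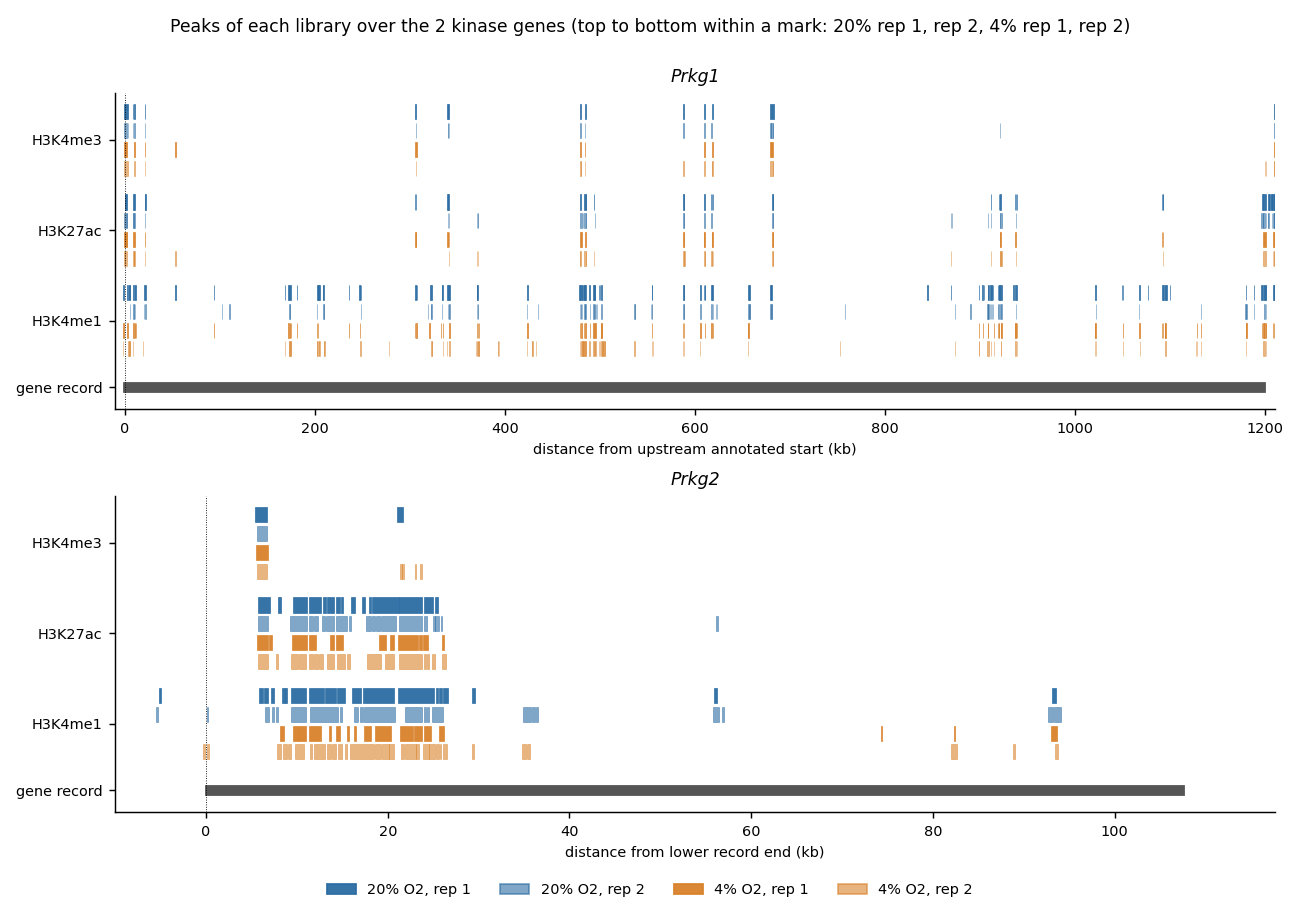
H3K4me3, H3K27ac and H3K4me1 peaks of each library over Prkg1 (top, distance in kb from the upstream annotated start) and Prkg2 (bottom, distance in kb from the lower record end), 1 row per library. Marked sites are spread along Prkg1, and in Prkg2 the H3K27ac regions of all 4 libraries lie in 1 cluster near the lower end.

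Pde5a, the phosphodiesterase that sildenafil inhibits, had H3K4me3 at its start over 3274, 2754, 2992 and 2941 bp within 2500 bp. H3K27ac there covered 2381 and 2524 bp at 20% O2 and 1501 and 2343 bp at 4% O2, lower at 4% without overlap. The difference of -530.5 bp was -109.5 bp without replicate 1 and -951.5 bp without replicate 2 of 4% O2. A further H3K4me3 region lay 70081 bp into the gene at the long non-coding RNA gene 4930447N08Rik, chr3:122799239-122802502, at 3174, 2140, 3173 and 2410 bp. The record of this RNA gene, widened by 1000 bp at each end, held 7701, 6306, 5010 and 5173 bp of H3K27ac and 7711, 7599, 5497 and 5992 bp of H3K4me1. Both were shorter in the 4% libraries without overlap. Like stretches of other genes were not counted. Among all covered gene windows, 62.4% were lower at 4% for H3K4me1 and 7.64% for H3K27ac. The Pde5a window as a whole had less H3K4me1 at 4% O2, 11588 and 11600 bp against 6878 and 8979 bp.

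H3K36me3 covered 83.5% and 91.1% of the Pde5a record at 20% O2 and 34.6% and 76.2% at 4% O2. In the window this was 109400 and 118600 bp against 45000 and 99200 bp, lower at 4% without overlap. Replicate 1 of 4% O2 had no island at all past the internal H3K4me3 site, where the other 3 libraries had 3 regions, the longest chr3:122833801-122860000 with 1112, 801 and 663 reads. Without that library the difference was -14800 bp instead of -41900 bp, and without replicate 2 of 4% O2 it was -69000 bp. In the shared part, chr3:122734601-122799800, the density was 2.10 and 2.24 reads per kb of island and per 1000000 island reads at 20% and 2.36 and 2.28 at 4%. This density counts only stretches that passed the island caller, and without the covered length as offset the log2 ratio of the shared part was -0.23 instead of 0.04. The record of another long non-coding gene, Gm34577, lies within the uncovered stretch, and the strand of the reads is not known, so neither gene's H3K36me3 can be told from the other's there.

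Pde9a, a phosphodiesterase of high affinity for cGMP that is prominent in brain, had H3K4me3 at the lower end of its record over 3316, 3505, 2659 and 4118 bp. H3K27ac just outside that end, chr17:31383246-31386085, covered 2701, 2840, 2638 and 2799 bp. H3K27ac just inside it, chr17:31386256-31389497, covered 279, 2840, 263 and 3221 bp. The inner region thus split by replicate and not by oxygen: both replicate 2 libraries, from 1 flow cell, were high. H3K4me1 in the window was lower at 4% O2, 19708 and 17966 bp against 11609 and 16754 bp, a difference of -4656 bp that was -2083 bp without replicate 1 and -7228 bp without replicate 2 of 4% O2. H3K36me3 covered 32.3%, 87.5%, 76.2% and 92.1% of the record, which overlap, with replicate 1 of 20% O2 standing apart.

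**Figure D4:**
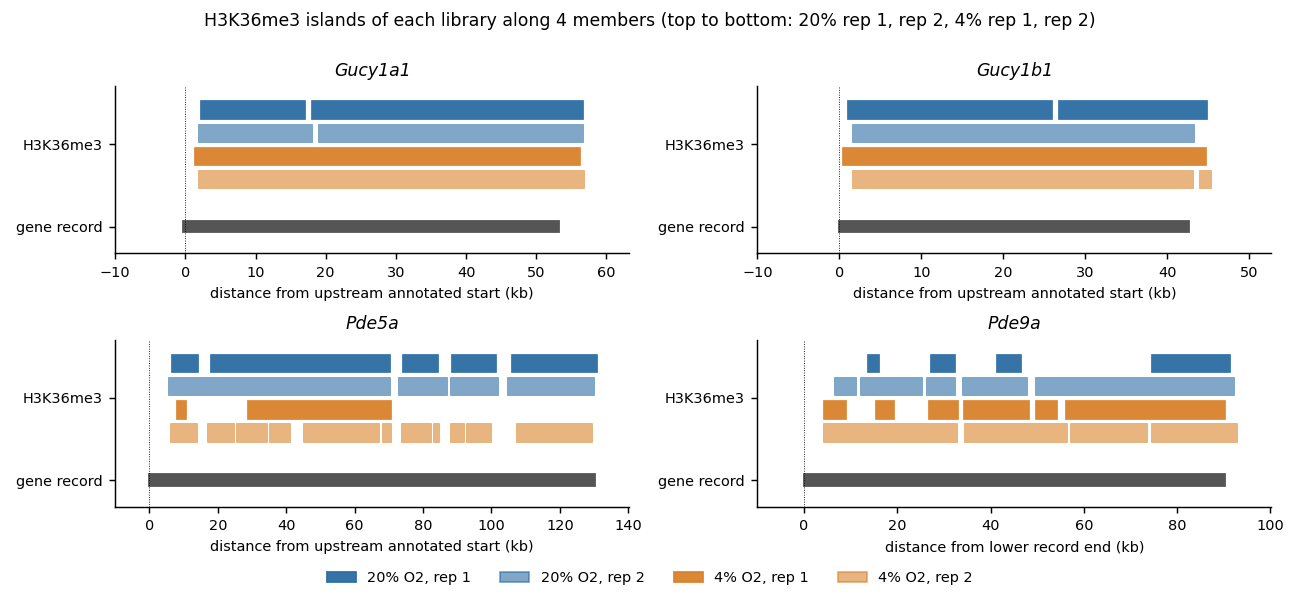
H3K36me3 islands of each library along 4 members (x axis: distance in kb from the upstream annotated start, or from the lower record end for Pde9a; 1 row per library). In all 4 libraries islands cover 94.1% to 97.1% of the Gucy1a1 record and 96.0% to 99.3% of the Gucy1b1 record, Pde5a lacks islands past the middle in replicate 1 of 4% O2, and Pde9a is covered least in replicate 1 of 20% O2.

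The question of the design is which of these domains differ between 20% and 4% O2. A window was called where the covered lengths of the 2 levels did not overlap. For H3K4me3, 2 of the 7 covered member windows were higher at 4% (Gucy1a1 and Gucy1a2), where 4.41% of 15312 covered windows of all genes were higher, and none was lower, where 15.9% of all were. The median difference over the members was 78 bp and over all genes -134 bp. For H3K27ac 1 of 7 was higher (Gucy1a1) and 1 lower (Prkg2), against 23.8% higher and 7.64% lower among all genes, so these counts stand near the background. The median difference was 58 bp for the members and 198 bp for all genes.

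For H3K4me1, 3 of 7 windows were lower (Prkg2, Pde5a and Pde9a) and none higher, against 62.4% lower and 0.284% higher among all genes. With 7 members, these counts are not read as a difference from all genes. The median difference was -3666 bp for the members and -1299 bp for all genes. For every mark these medians are absolute lengths, not scaled to the window. Member windows span 62708 to 1220782 bp, while 6007 of 21887 genes have records of 40 kb or more. The medians are therefore not read as a difference between members and other genes. H3K4me1 peaks covered 106 and 81.8 Mb of the genome at 20% O2 and 61.0 and 63.8 Mb at 4% O2. The part of that difference in the members' values was not tested. For H3K36me3, 1 of the 6 covered windows was higher (Gucy1a1, by 1100 bp: 53800, 54000, 55000 and 55000 bp) and 1 lower (Pde5a), against 9.85% higher and 21% lower among all genes. The median difference was 1100 bp over all 7 members, with Prkg2, which had no island, entered as 0. It was -500 bp over the 13420 covered windows of all genes. In bulk chromatin, fewer cells with a mark and less of it per cell cannot be told apart.

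With 2 libraries against 2, the two-sided exact permutation test of a window cannot give a p below 0.333. Each of the 27 member and mark pairs with peaks had p of 0.333 or more, and 1 after Benjamini-Hochberg adjustment, so no member difference is significant by this test. All 9 called windows keep their direction within replicate 2 by the construction of the call. That replicate shared a flow cell, but for H3K4me3 and H3K4me1 its oxygen levels were on different lanes. For H3K4me3 the differences within replicates 1 and 2 were 352 and 290 bp in Gucy1a1 and 326 and 753 bp in Gucy1a2. Of the 18 windows whose levels overlap, 5 had the same sign within both replicates. They were higher at 4% for H3K27ac in Gucy1a2 (184 and 262 bp) and for H3K36me3 in Gucy1b1 (1200 bp in each) and Pde9a (38600 and 5000 bp). They were lower for H3K27ac in Prkg1 (-3883 and -876 bp) and Pde5a (-4178 and -1210 bp).

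Read at the annotated starts alone, a narrower window chosen after the values were seen, H3K27ac was higher at 4% O2 in Gucy1a1 (both starts) and Prkg1 (upstream start) and lower in Pde5a. Among all covered starts 25.9% were higher and 8.93% lower. H3K4me3 was higher at both starts of Gucy1a1 and at that of Gucy1a2, against 5.28% higher and 17.5% lower among all starts. H3K4me1 was lower at both starts of Gucy1a1, 2287 and 1382 bp against 833 and 757 bp at the upstream one, where 56.9% of all starts were lower and 0.306% higher. Without replicate 1 of 20% O2 that difference was -587 bp instead of -1040 bp, and at the downstream start -573.5 bp instead of -880.5 bp.

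**Figure D5:**
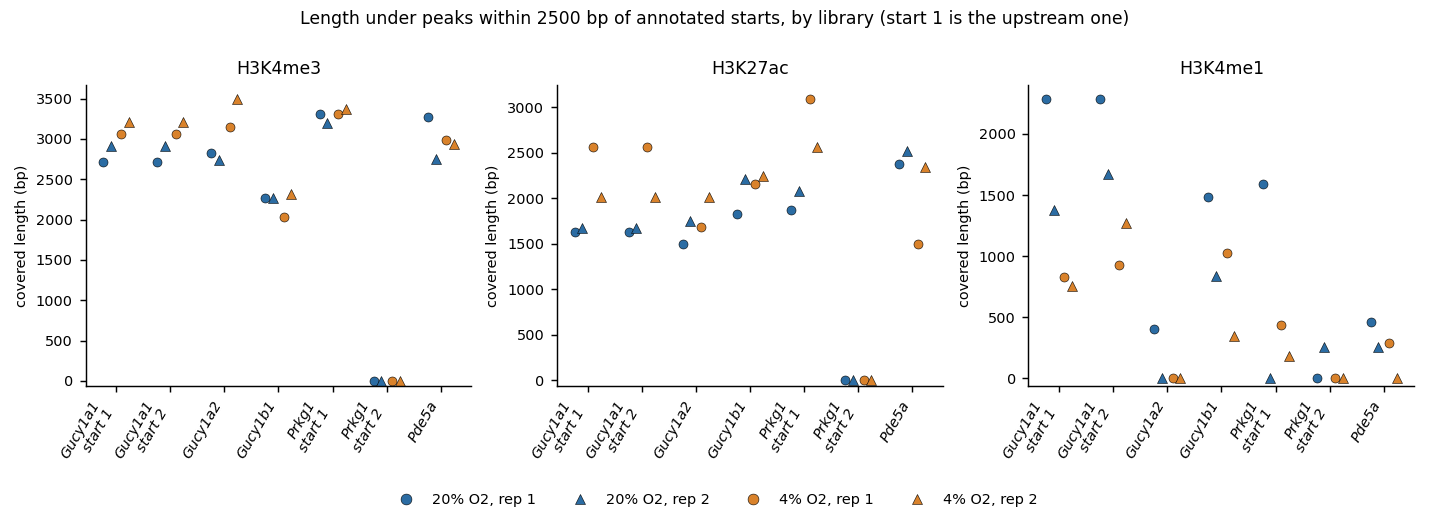
Length under peaks within 2500 bp of the 7 annotated starts (y axis, bp) for 3 marks in every library (colour: oxygen level; circle: replicate 1, triangle: replicate 2). The 4% points lie above the 20% points for H3K4me3 in Gucy1a1 and Gucy1a2 and for H3K27ac in Gucy1a1 and the upstream start of Prkg1, and the downstream start of Prkg1 has no H3K4me3 or H3K27ac.

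Regions were also compared one by one, a region being the merged extent of the peaks of all 4 libraries. Of 35 H3K4me3 regions over the members, 19 were in all 4 libraries, 2 only in both 20% libraries and 0 only in both 4% libraries, against 0.841% and 0.482% of all regions. Of 103 H3K27ac regions 34 were in all 4, 5 only at 20% and 2 only at 4% (background 1.55% and 2.59%). Of 220 H3K4me1 regions 51 were in all 4, 13 only at 20% and 3 only at 4% (background 6.22% and 0.807%). The longest 4%-only H3K4me1 region was chr5:99011715-99012458 in Prkg2, with 197 and 744 bp. Prkg1, the member with the longest record, held 18 of the H3K4me3, 49 of the H3K27ac and 139 of the H3K4me1 regions. In the same order, Prkg1 held 2, 3 and 10 of those only at 20%, and 0, 0 and 2 only at 4%. Over all members the 20%-only shares were 5.71%, 4.85% and 5.91%, and the 4%-only shares 0%, 1.94% and 1.36%. The 20%-only shares rest largely on Prkg1 and are not read as a pattern of the members as a set. The 13 H3K36me3 regions held none of either kind (background 2.68% and 1.01%). For H3K27me3 there was no region over the members to compare (background 2.92% and 1.92%).

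Read density inside the H3K36me3 islands was compared with edgeR's quasi-likelihood test over 10858 regions, with the covered length as offset. No region of the series was called at an adjusted p of 0.05, that is 0% higher and 0% lower; 965 had an unadjusted p under 0.05, and DESeq2 called 2. The 6 member regions tested had 0 calls and 0 unadjusted p under 0.05. In Gucy1a1 the density was 2.82 and 2.83 at 20% O2 and 3.28 and 3.36 at 4% O2, a log2 ratio of 0.18 (SE 0.11, edgeR adjusted p 0.627). In Gucy1b1 it was 3.86, 3.19, 4.14 and 3.86, a log2 ratio of 0.13 (SE 0.12, edgeR adjusted p 0.777). Among the regions of this mark with islands in all 4 libraries, these densities rank Gucy1b1 above 85.9% and Gucy1a1 above 68.4%. In the same set the shared part of Pde5a ranks above 33.7%, and the regions of Pde9a above 19.2% and 28.5%. In Pde5a the log2 ratio was 0.04 (SE 0.11, edgeR adjusted p 0.932). In the longer Pde9a region the density was 1.64, 2.17, 2.06 and 2.68, a log2 ratio of 0.26 (SE 0.17, edgeR adjusted p 0.647). It was higher at 4% within each replicate, but the oxygen levels overlap, and the ratio was 0.04 without replicate 2 of 4% O2, 0.07 without replicate 1 of 20% O2, 0.45 without replicate 1 of 4% O2 and 0.48 without replicate 2 of 20% O2.

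The nearest H3K27me3 island to a member record was 39.4 to 44.0 kb from Prkg2, 110 to 141 kb from Pde9a, 264 to 275 kb from Pde5a and 296 to 460 kb from Gucy1a2. It was 534 to 762 kb from Gucy1a1, 605 to 833 kb from Gucy1b1 and 1114 to 1120 kb from Prkg1. Among all genes 64.4% of windows had no H3K27me3, and 59.3% of those with records of 40 kb or more. Where the mark was present, 22.9% of windows were higher and 5.14% lower at 4% O2.

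Of the other genes of cGMP signalling, a list of 47, 26 had H3K27me3 in the window (55.3%, against 35.6% of all genes) and 12 had it over at least 25% of the record (25.5% against 15.4%), among them Gucy1b2, the β2 subunit gene, at 70.6%, and the phosphodiesterase genes Pde1b at 88.2% and Pde3b at 83.1%. H3K4me3 at an end of the record was in all 4 libraries for 19 of the 47 (40.4%, against 53.4% of all genes), and H3K36me3 covered at least 25% of the record in 9 (19.1% against 44.2%). By the same call, H3K27ac was higher at 4% in 11 of the 31 covered windows (35.5%, against 23.8% of all genes) and lower in 1 (3.23% against 7.64%). H3K27me3 was higher in 8 of 26 (30.8% against 22.9%) and lower in 2 (7.69% against 5.14%). H3K4me1 was lower in 17 of 32 (53.1% against 62.4%) and higher in 0. H3K4me3 was higher in 3 of 35 (8.57% against 4.41%) and lower in 4 (11.4% against 15.9%). H3K36me3 was higher in 3 of 27 (11.1% against 9.85%) and lower in 5 (18.5% against 21%). These shares are given as a description, and their differences from all genes were not tested. The widest separation in H3K27ac was at Hcn4, a pacemaker channel gated by cyclic nucleotides, at 1126, 2927, 5933 and 8126 bp. Ppp1r12a, the myosin phosphatase subunit that PKG acts on, had 5692, 4834, 7335 and 8878 bp. H3K36me3 was lower at 4% in Itpr1, the IP3 receptor of calcium stores, at 144000, 92800, 54000 and 5400 bp, and in Npr1, the receptor guanylate cyclase of atrial natriuretic peptide, at 9000, 8600, 2800 and 0 bp. It was higher in Pde10a, at 288648, 313048, 343848 and 371048 bp. Mrvi1, the substrate that ties PKG I to the IP3 receptor, had lower H3K4me1, 19133 and 20312 bp against 10388 and 13895 bp.

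The genes most like each member were found by the distance between their window shares over the 20 libraries, among records 0.5 to 2 times as long. For Gucy1a1 they were Far1 and Pdcd6ip, at 3.71 and 4.90 percentage points, where the median candidate stood at 82.4. For Gucy1a2, Fam172a stood at 1.61. For Gucy1b1 they were Calu and Map9 (10.1 and 11.4). Prkg1 was closest to Agbl1 and Hs6st3 (2.42 and 2.59), where its median candidate, of 151, stood at only 11.3. Prkg2 was closest to Mrvi1, which is on the cGMP list, and Col15a1 (6.37 and 6.68). Pde5a was closest to Trim9 and Etv6 (12.5 and 16.9). Pde9a was closest to Lrp1 and Sctr, at 22.9 and 27.5, where its median candidate stood at 85.3. These distances are a description of shared libraries and record lengths, and are not compared between members.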

How the data were processed

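Histone marks were profiled in mouse N1E115 cells at 2 oxygen levels. The authors aligned reads with BWA to mm10, used Picard, and called peaks with MACS2 or islands with SICER, per the submitters' processing notes; versions are not given in the sources used here. Each library was called separately against an input, per the file headers and names. The deposited MACS2 lists give a score per peak, taken as −log10 of a q-value from the layout of such files. The deposited SICER lists give whole-number read counts per island. Depth of the MACS2 libraries is unknown, since those lists hold no reads.

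Covered bases were summed over each window (record and 10000 bp on either side) per library, with Python 3.11.15 and numpy 2.4.6. Gene records and promoters are from RefSeq GRCm38.p6. Windows were called where the 2 oxygen levels did not overlap, and tested by exact two-sided permutation. Regions are merged peaks, read as present or absent. Island reads were tested with edgeR 4.0.16 (quasi-likelihood, covered length as offset, Benjamini-Hochberg, threshold 0.05), with DESeq2 1.42.0 as an alternative; scripts were tested on simulated data. Alternatives were the window's extent, equal peak numbers, a stricter threshold (score of at least 5, or islands of at least 2000 bp), merging, and leaving out each library. Members and lists were chosen with earlier results of these data known. All 7 members are named; of the cGMP list, at most 3 genes per mark and direction could be named, those with the widest gap between oxygen levels, and those with H3K27me3 over the record were picked after their values were seen. For each member the 2 most alike genes are named, except where a gene is not reported here. One list entry, Irag1, matched by synonym as Mrvi1. Input libraries were not analysed here.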

Additional observations from a re-analysis of the deposited data

How the results depend on the processing

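The 9 called windows kept their direction in all 72 recomputed differences (8 other settings each). In the settings that leave out 1 library this was fixed by the construction of the call. Only the settings of window extent, equal peak numbers and stricter threshold could have changed it. The counts of called windows moved more. With the record alone H3K4me1 had 5 calls (3 in the report). These were lower at 4% O2 except Gucy1a2, which was higher, at 187 and 241 bp against 462 and 341 bp. With the record alone H3K4me3 had 1 call (2 in the report). That H3K4me3 call was Gucy1a2, at 1329 and 1300 bp against 1330 and 1734 bp, the last with a separate peak seen in 1 library. With 50 kb on either side H3K27ac had 1 call (2) and H3K27me3 1 (0). The stricter threshold gave 5 H3K4me1 calls. The 2500 bp around starts, added after seeing the data, gave 1 call for H3K4me1 and 0 for H3K36me3 (2). Leaving out one library at a time, with 2 libraries against a lone one and therefore fewer ways to overlap, window calls ranged from 3 to 6 for H3K4me3, 4 to 5 for H3K27ac, 3 to 7 for H3K4me1, 3 to 5 for H3K36me3 and 0 to 0 for H3K27me3. Region calls ranged from 2 to 9 for H3K4me3 (2 in the report), 14 to 25 for H3K27ac (7), 33 to 58 for H3K4me1 (16) and 0 to 3 for H3K36me3 (0). Merging peaks within 1000 bp left 1 H3K4me3, 0 H3K27ac and 6 H3K4me1 region calls, and equal peak numbers left 0 H3K4me3 region calls. In the other cases the cause was not tested.

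DESeq2 called 2 H3K36me3 regions where edgeR called 0. Without one library edgeR called 3 to 50 H3K36me3 and 0 to 111 H3K27me3 regions, of which 0 were over members. H3K27me3 itself had 0 calls of 10177 regions by edgeR (960 with unadjusted p under 0.05) and 0 by DESeq2 (467). With the replicate block edgeR called 1163 H3K36me3 regions (631 higher and 532 lower) and 1142 H3K27me3 regions (795 and 347). Over members the replicate block gave 1 call, the Pde9a region chr17:31420001-31479000, at a log2 ratio of 0.26 (edgeR adjusted p 0.0261), which without the block ranged from 0.036 to 0.48 with one library left out, at edgeR adjusted p of 0.166 to 0.994. Same-numbered libraries deviated together, with a correlation over regions of 0.50 for H3K36me3 and 0.43 for H3K27me3, but with 2 numbers the labels do not show that a number marks a shared culture. The report gives the differences of windows within each replicate. Small log2 ratios changed sign. Pde5a went to -0.23 without the length offset, and ranged from -0.0085 to 0.082 with one library left out. The same range was -0.023 to 0.41 for the first Pde9a region, -0.0057 to 0.27 for Gucy1b1 and -0.053 to 0.23 for Prkg1, the lowest values being without replicate 1 of 20% O2 for Pde5a and Pde9a, replicate 2 of 20% O2 for Gucy1b1 and replicate 1 of 4% O2 for Prkg1. With the read depth of the MACS2 libraries unknown, a peak absent from a list cannot be told from one below the caller's threshold.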
